A study of Mus musculus with 7 samples.

Results

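Gfap, Vim, Nes and Synm encode the intermediate filament proteins of V-SVZ glia: GFAP, vimentin, nestin and synemin. They were followed in the 7 single-cell RNA-seq libraries of the mouse ventricular-subventricular zone (V-SVZ), the stem cell niche along the lateral ventricle. The members were these 4 gene symbols of 32285 genes in the count matrices. The 3 control libraries came from Prdm16 flox/flox mice without Cre, which the submitters label Prdmflox/flox. The 3 Prdm16 cKO libraries came from hGFAP-Cre+/-; Prdm16flox/flox mice, and the single DKO library from hGFAP-Cre+/-; Prdm16flox/flox; Vcam1flox/flox mice. All 3 groups carry the floxed Prdm16 alleles. In hGFAP-Cre mice the human GFAP promoter drives Cre in embryonic radial glia, so their later progeny in the brain also carry the deleted alleles. Each library pooled the lateral walls of 2 to 3 mice, both sexes together, aged 31 to 33 days, after papain digestion and a density gradient to remove myelin and debris. The comparison of cKO with control asks how these glial genes stand when Prdm16, a transcription regulator, is deleted, and the DKO library adds the loss of Vcam1, an adhesion molecule of quiescent V-SVZ stem cells.

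Intermediate filament proteins share a coiled-coil rod and assemble into filaments that give cells mechanical support. GFAP and vimentin can form filaments on their own. Nestin and synemin are large proteins with long tails that join filaments built from such partners. Vimentin and nestin are textbook proteins of radial glia and neural progenitors, while GFAP marks postnatal V-SVZ stem cells (type B cells) and astrocytes, and rises in glia that react to injury. Ependymal cells, the ciliated lining of the ventricle, are rich in vimentin, and endothelial cells also use vimentin filaments.

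In GRCm38 with the GENCODE vM21 annotation, Gfap (ENSMUSG00000020932) lies at chr11:102887336-102900912 on the minus strand, and its coding transcript with most exons has 9. Vim (ENSMUSG00000026728) lies at chr2:13573927-13582826 on the plus strand, also with 9 exons. Nes (ENSMUSG00000004891) lies at chr3:87971078-87980451 on the plus strand with 5 exons. Synm (ENSMUSG00000030554) lies at chr7:67730160-67759742 on the minus strand with 5 exons. No annotated gene overlaps any of them on the same strand, so their UMIs could not be split with an overlapping gene on that strand. The 3′ counts add all transcripts of a gene, so the splice forms of Gfap and Synm were not told apart.

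The promoters of the 4 genes are shown because the members are compared with each other throughout. Each sequence runs 5′ to 3′ on the gene's strand, from 250 bases before to 50 bases after the RefSeq start, in GRCm38.p6. Capitals mark matches to 4 short motifs on either strand: TATAAA as the TATA box, CCAAT as the box of that name, GGGCGG as the GC box and TTCNNNGAA as the letters that STAT factors bind.
Gfap promoter, chr11:102897151-102897450, minus strand: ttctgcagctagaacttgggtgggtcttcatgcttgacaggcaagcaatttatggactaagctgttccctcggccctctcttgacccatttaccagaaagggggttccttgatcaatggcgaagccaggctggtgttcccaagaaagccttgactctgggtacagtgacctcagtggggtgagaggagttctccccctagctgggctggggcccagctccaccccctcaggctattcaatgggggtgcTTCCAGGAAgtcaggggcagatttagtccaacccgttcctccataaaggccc
Vim promoter, chr2:13574061-13574360, plus strand: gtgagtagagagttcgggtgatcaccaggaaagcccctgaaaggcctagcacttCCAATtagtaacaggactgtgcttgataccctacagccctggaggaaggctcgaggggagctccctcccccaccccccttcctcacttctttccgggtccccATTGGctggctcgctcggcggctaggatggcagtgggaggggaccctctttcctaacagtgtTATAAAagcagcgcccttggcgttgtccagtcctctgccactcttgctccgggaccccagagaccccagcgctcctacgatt
Nes promoter, chr3:87970843-87971142, plus strand: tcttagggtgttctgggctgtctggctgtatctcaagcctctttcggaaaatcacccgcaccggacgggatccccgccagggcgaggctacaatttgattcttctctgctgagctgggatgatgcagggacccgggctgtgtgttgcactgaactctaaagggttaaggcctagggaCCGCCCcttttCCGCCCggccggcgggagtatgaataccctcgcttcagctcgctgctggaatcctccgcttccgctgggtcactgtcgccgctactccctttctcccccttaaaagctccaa
Synm promoter, chr7:67759693-67759992, minus strand: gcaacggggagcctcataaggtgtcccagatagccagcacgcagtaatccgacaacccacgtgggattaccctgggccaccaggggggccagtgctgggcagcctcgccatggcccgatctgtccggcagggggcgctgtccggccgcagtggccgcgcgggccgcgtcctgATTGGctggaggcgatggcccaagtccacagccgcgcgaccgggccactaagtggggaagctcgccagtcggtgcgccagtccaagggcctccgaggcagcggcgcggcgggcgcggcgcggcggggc
The Gfap window held 1 TTCNNNGAA match, which begins 2 bases before the start, and none of the other motifs. The Vim window held TATAAA, 32 bases before the start, and 2 CCAAT matches. The Nes window held 2 GC boxes, and the Synm window held 1 CCAAT match in its antisense reading ATTGG. No motif was in all 4 windows, and CCAAT was the only one in more than 1 of them. Over 32851 RefSeq promoter windows of the same length, 8.30% held TTCNNNGAA, 13.6% TATAAA, 37.4% CCAAT and 35.7% GGGCGG. A match describes letters in the window and not a site in use. The Synm window was the richest in G and C, at 72.7%, against 55.7% for Gfap, 58.7% for Nes and 59.3% for Vim.

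The libraries held 45758003 to 141353017 UMIs, and 43346 cells with 500 to 7000 genes and at most 10% mitochondrial UMIs were kept, with library medians of 4960 to 8318 UMIs. The kept cells carried 15666 to 49483 UMIs of the 4 genes per library. These limits kept 70.2 to 74.7% of barcodes, but 49.8% in cKO library 2 and 47.2% in cKO library 3. In all, 340 barcodes of kept cells occurred in more than 1 library. Cell types were assigned from marker genes that include none of the 4 members, which left 8759 cells unassigned. Astroglia cells were those with at least 6 of 8 astroglia markers and too few markers of any other type to be assigned to it. They were called NSC-like when at least 35% of their UMIs of the markers that tell NSCs from astrocytes came from the NSC markers, and astrocyte-like when at most 15% did. The 2448 astroglia cells between these limits, or with fewer than 5 UMIs of those markers, were put in neither type. Markers that differed between groups were left out of this split, so it rested on 2 of 6 NSC markers, Fabp7 and S100a6, and 5 of 8 astrocyte markers. Over all astroglia cells the mean of the NSC marker Thbs4 was 377 CPM in control and 119 CPM in cKO libraries, and the cKO over control ratios of Hopx, Nr2e1 and Hes5 were 0.547, 0.655 and 0.668. The astrocyte marker Agt stood at 47.5 and 659 CPM, while Lcat and Itih3 had ratios of 0.599 and 0.707. The part of these shifts in the results for NSC-like and astrocyte-like cells was not tested. The cKO libraries did not form 1 group: in a clustering without the 4 members, 1 cluster (cluster 3) held 81.2 to 84.3% of the control NSC-like cells, 66.0% of those of cKO library 1 and 68.5% of the DKO library's, but 7.83 and 5.81% in cKO libraries 2 and 3. Another (cluster 4) held 1.13 to 2.30% of control NSC-like cells against 15.9, 54.8 and 63.7% in cKO libraries 1, 2 and 3 and 12.7% in the DKO library. The results are therefore given with and without cKO library 1. Each library was left out in turn, but this one was singled out after its clusters were seen. Calls made without it depend on that choice. Control library 2 stood apart in other types: 631 of the 641 cells of neuroblast cluster 25, all 375 of oligodendrocyte cluster 27 and 1246 of the 1259 in cluster 26, which could not be named, were from this library. Prdm16 itself stood at 77, 57 and 70 CPM (counts-per-million values, a gene's UMIs scaled to the same total for each library's cells of a type) in control NSC-like cells and at 52, 47 and 40 in the cKO libraries (log2 fold change -0.48 ± 0.16 SE, adjusted p = 0.240), and these 3′ counts need not cover the deleted exons, so they do not check the deletion. In astrocyte-like cells Prdm16 was not lower, with 58, 47 and 45 CPM in control and 49, 72 and 53 CPM for the cKO libraries. Vcam1 in the DKO library stood at 90.9 CPM in NSC-like cells (104 to 155 CPM in control) and at 155 CPM in astrocyte-like cells (316 to 387 CPM in control).

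**Figure D1:**
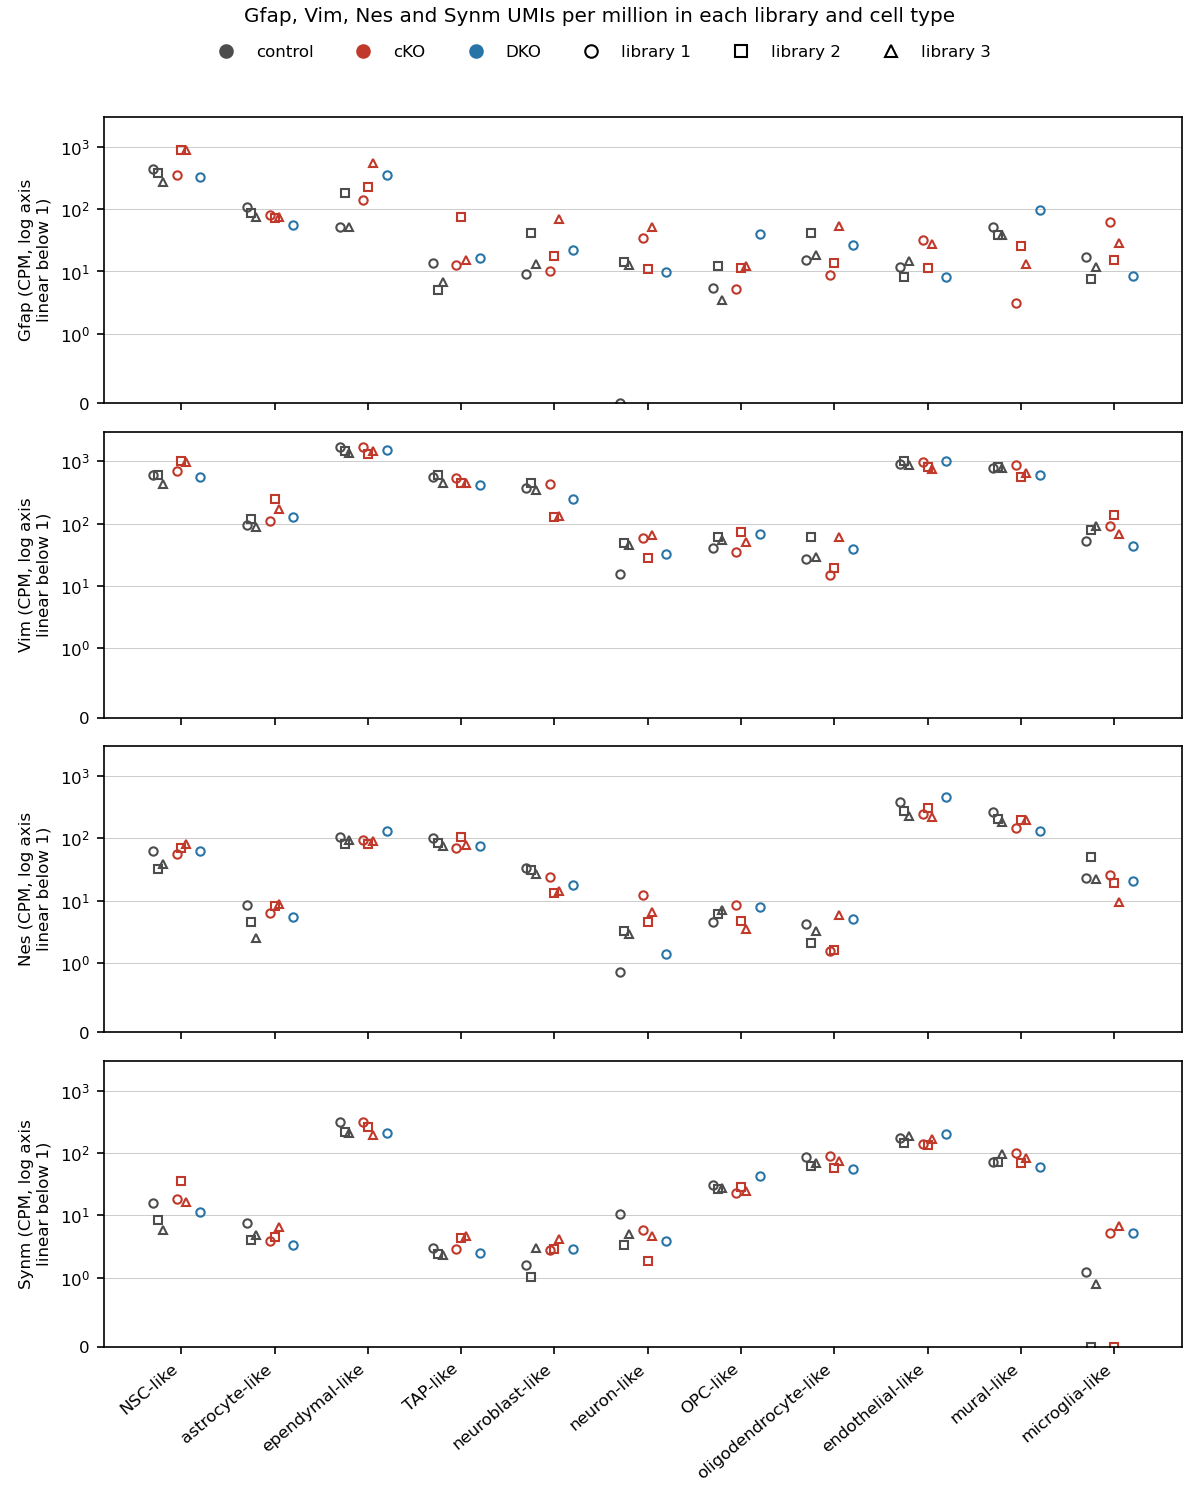
CPM of Gfap, Vim, Nes and Synm (log axis, linear below 1 CPM) in 11 marker-defined cell types, with 1 point per library, coloured by group. By the mean of the control libraries, Gfap peaks in NSC-like cells, Vim and Synm in ependymal-like cells and Nes in endothelial-like cells.

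The 4 genes had different leading cell types in control mice. Levels are given in CPM, averaged over the 3 control libraries ± SD. Gfap was highest in NSC-like cells, at 365 ± 84.5 CPM, 3.87 times the next type. Ependymal-like cells (94.3 ± 75.2) and astrocyte-like cells (90.1 ± 17.0) followed and overlapped, and the control libraries of astrocyte-like cells all lay above those of the fourth type, mural-like cells (43.2 ± 8.07). From mural-like cells down, each type overlapped with the next, to the lowest level of 7.06 ± 4.54 CPM in oligodendrocyte precursor (OPC)-like cells. Cells that do not make a transcript can carry its UMIs from free RNA, and the Gfap level in microglia-like cells, an immune type, was 12.2 ± 4.70 CPM. A few cells carried much of the Gfap count in some types: in control library 2, 62 of 102 Gfap UMIs of ependymal-like cells and 153 of 198 of neuroblast-like cells came from 1 cell each.

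Vim was spread more widely. It reached 1499 ± 164 CPM in ependymal-like cells, 925 ± 66.8 in endothelial-like cells and 787 ± 14.5 in mural-like cells, each with no overlap with the next. NSC-like cells (546 ± 92.9) and transit-amplifying progenitor (TAP)-like cells (537 ± 86.2) could not be told apart by their libraries' ranges. Neuroblast-like cells stood at 388 ± 48.1 CPM, 3.81 times the 102 ± 15.4 CPM of astrocyte-like cells. From astrocyte-like cells down to neuron-like cells (36.7 ± 18.4) all neighbours overlapped.

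Nes, the progenitor filament gene, was highest not in a neural type but in vessels, at 293 ± 78.3 CPM in endothelial-like cells, with 215 ± 41.5 CPM in the mural-like cells that overlapped with them. Among neural types, ependymal-like (94.5 ± 12.3) and TAP-like cells (86.6 ± 14.4) overlapped, and both lay above NSC-like cells (44.0 ± 15.8) in every control library. NSC-like, microglia-like (31.9 ± 16.3) and neuroblast-like cells (30.1 ± 3.55) overlapped with their neighbours in the order. A step of 5.10 times separated neuroblast-like cells from OPC-like cells, and the 4 lowest types, astrocyte-like cells among them (5.19 ± 3.00), lay at 5.90 CPM or below.

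Synm followed another order. It was highest in ependymal-like cells (247 ± 54.5 CPM), then endothelial-like (169 ± 21.5), mural-like (79.97 ± 13.9) and oligodendrocyte-like cells (72.1 ± 12.7). The last 2 of these overlapped, and OPC-like cells (28.2 ± 1.87) lay below them and above NSC-like cells (9.90 ± 5.19) without overlap. Neural progenitors were low: TAP-like cells had 2.56 ± 0.332 and neuroblast-like cells 1.87 ± 1.02 CPM. In microglia-like cells 2 control libraries had 1 Synm UMI each and the other had 0, which allows up to 7.61 CPM at a floor of 3 UMIs.

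Over the 33 control sums (11 types in 3 libraries), Pearson's r of log2(CPM + 1) was highest between Vim and Nes, at 0.891, and lay between 0.149 (Gfap and Synm) and 0.421 (Gfap and Vim) for the other pairs. The sums share libraries and types, so r describes the order of types only. The same measure was used to find the genes whose pattern across types was most like each member, among 12430 genes that reached 20 CPM in some type. For Gfap these were Fxyd1, a regulator of the sodium pump (r = 0.884), then Gm20083 (0.856), the peroxidase gene Prdx6 (0.854), Cbs, of transsulfuration (0.852), and Prodh, of proline breakdown (0.851). For Vim they were Nes itself, Unc119b (0.853), the chemokine receptor gene Cxcr4 (0.846), Parva, of cell adhesions (0.845), and Csrp2 (0.843). For Nes they were the tropomyosin gene Tpm4 (0.899), Vim, Cyb5r3 (0.870), the membrane linker gene Msn (0.864) and the splicing regulator gene Ptbp1 (0.864). For Synm they were Sgms2, of sphingomyelin synthesis (0.903), Cobll1 (0.895), the phosphatase gene Ptprk (0.893), the plasminogen activator gene Plat (0.889) and Apbb2 (0.875). The like genes of Gfap peaked in NSC-like or astrocyte-like cells, and those of Synm in endothelial-like or mural-like cells.

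In NSC-like cells, split off with Fabp7 and S100a6 as the NSC markers, all 4 filament genes had higher mean levels in Prdm16 cKO than in control libraries. The other NSC markers had lower means in cKO astroglia cells and the cluster shares differed, as given above. The compared cells may therefore not be the same kind of cell in both groups. Gfap stood at 438, 385 and 272 CPM in control libraries 1, 2 and 3. The cKO libraries had 347, 873 and 890 CPM in the same order. cKO library 1 thus lay within the control range, and the other cKO libraries lay above the highest control. The cKO mean was 1.93 times the control mean, a log2 fold change of 1.04 ± 0.35 SE (edgeR's quasi-likelihood test, Benjamini-Hochberg adjusted p = 0.272). Vim stood at 593, 605 and 439 CPM in control libraries, and the cKO libraries had 705, 1011 and 979 CPM, so the groups did not overlap. Its log2 fold change was 0.80 ± 0.22 SE (edgeR, adjusted p = 0.129). The groups also did not overlap for Synm, with 15.7, 8.23 and 5.74 CPM in control and 18.1, 35.2 and 16.4 CPM in cKO libraries. Its counts were small, 23 to 74 UMIs per library, and its log2 fold change was 1.28 ± 0.38 SE (edgeR, adjusted p = 0.209). Nes overlapped between groups, with 61.8, 31.9 and 38.3 CPM in control and 55.6, 69.9 and 80.1 CPM in cKO libraries (log2 fold change 0.72 ± 0.24 SE, edgeR, adjusted p = 0.232).

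None of the 4 passed an adjusted p of 0.05 in NSC-like cells with edgeR, beside 0.465% of all genes tested, while all 4 had an unadjusted p under 0.05, beside 1613 of 13553 genes (11.9%). DESeq2 called 3 of them higher, Vim (adjusted p = 0.00417), Gfap (0.0157) and Synm (0.0336), but not Nes (0.131), beside 2.35% of genes called higher. With no filter on low counts edgeR called all 4 higher (adjusted p = 6.05e-05 for Synm to 0.0127 for Vim), beside 548 of 20961 genes called higher. All cKO libraries lay above all control libraries for 2 of the 4, beside 6.60% of genes. Without cKO library 1, edgeR called all 4 higher: Gfap by 1.39 ± 0.22 SE on the log2 scale (adjusted p = 0.000191), Vim by 0.98 ± 0.22 (0.00533), Nes by 0.89 ± 0.22 (0.0146) and Synm by 1.45 ± 0.40 (0.0477). In that fit 5.51% of genes were called higher. The library left out is the cKO library whose Gfap lay within the control range, so these calls follow in part from that choice. Leaving out the DKO library as well, which was chosen after seeing the data, gave adjusted p-values of 0.00031 for Gfap and 0.0497 for Synm. Within the libraries of Cell Ranger 6.0.1 (2 control, 2 cKO), the cKO level minus the control level on the log2 scale was 0.57 for Gfap, 0.52 for Vim, 0.41 for Nes and 1.09 for Synm. Within version 6.1.1 (1 control, 1 cKO) it was 1.71, 1.16, 1.05 and 1.37 in the same order.

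**Figure D2:**
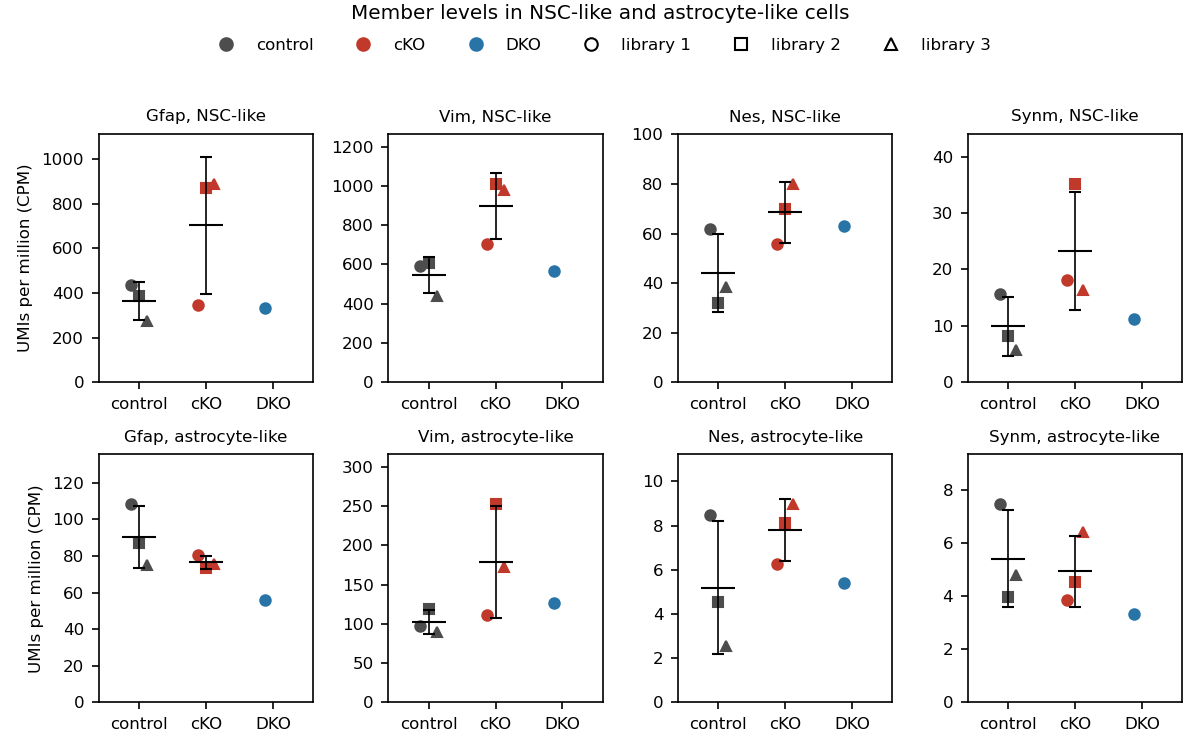
CPM of the 4 genes in NSC-like and astrocyte-like cells, with 1 point per library (the marker shape gives the library number) and bars at the group mean ± SD. In NSC-like cells cKO library 1 lies nearer the control libraries than cKO libraries 2 and 3 do for Gfap, with 347 against 873 and 890 CPM.

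Cluster 4, which held most NSC-like cells of cKO libraries 2 and 3, had Gfap and Vim levels in the cKO and DKO libraries above those of cluster 3. There, Gfap reached 674, 1133 and 1109 CPM in the 3 cKO libraries, beside 859 CPM for the DKO library. Vim stood at 1274, 1141, 1083 and 1213 CPM in the same libraries. The 22 cells of control library 3 in cluster 4 had Gfap at 1749 CPM, Vim at 552 CPM and Nes at 4.89 CPM, so Vim and Nes were not high there. In cluster 3, with most control NSC-like cells, Gfap stood at 262 to 482 CPM and Vim at 461 to 639 CPM in control libraries, and cKO library 1 was within both ranges, at 321 and 548 CPM. The 24 cells of cKO library 3 had 273 and 455 CPM there, and the DKO library had 256 and 451 CPM. Cluster 3 held 403 of the NSC-like cells of cKO library 1 and cluster 4 held 97. Over all NSC-like cells of that library Gfap, at 347 CPM, was close to its cluster 3 value, while Vim (705 CPM) and Nes (55.6 against 30.8 CPM in cluster 3) lay higher. The 4 members took no part in the clustering, but genes that vary with them did, so these values are a description.

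In astrocyte-like cells the Vim mean was higher and the Gfap mean lower in cKO than in control libraries, with no call in the main fit. Vim stood at 97.0, 119 and 89.7 CPM in control and at 111, 253 and 172 CPM in cKO libraries, with cKO library 1 inside the control range (log2 fold change 0.79 ± 0.23 SE, edgeR, adjusted p = 0.137). Gfap stood at 108, 86.9 and 75.0 CPM in control and at 80.5, 73.2 and 75.7 CPM in cKO libraries, which overlapped (log2 fold change -0.22 ± 0.17 SE, adjusted p = 0.757). Nes and Synm were near the limit of detection, with 8 to 21 and 5 to 15 UMIs per library (log2 fold changes 0.66 and -0.09, adjusted p = 0.693 and 0.975). So 0 of 4 passed with edgeR and 0 with DESeq2, beside 1.29% of all genes with edgeR, and 1, Vim, had an unadjusted p under 0.05, beside 10.2% of all genes. With all libraries, edgeR called Vim higher with a replicate block (adjusted p = 0.00359) and with no filter on low counts (0.00333). The share of genes called higher in those fits is not given, so these calls have no background beside them. Without cKO library 1, Vim was called higher by 1.04 ± 0.20 SE (adjusted p = 0.00129), beside 2.50% of genes called higher, and the other 3 were not. The library left out is the cKO library whose Vim lay inside the control range, so this call follows in part from that choice.

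**Figure D3:**
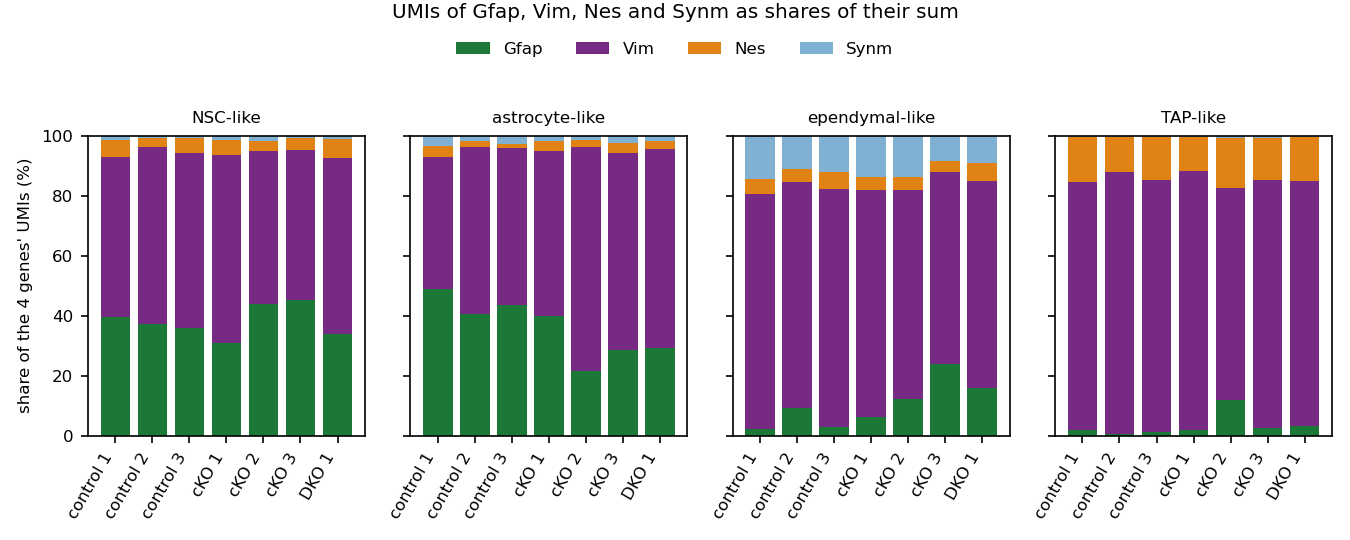
UMIs of Gfap, Vim, Nes and Synm as shares of their sum (%), 1 stacked bar per library, in NSC-like, astrocyte-like, ependymal-like and TAP-like cells. In astrocyte-like cells Gfap takes 40.5 to 49.0% in control and 21.6 to 39.9% in cKO libraries.

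The makeup of the filament transcripts shows whether the 4 genes kept their proportions. In NSC-like cells Gfap took 37.6% ± 1.74 of the 4 genes' UMIs in control and 40.0% ± 7.96 in cKO libraries (SD, n = 3 each, exact two-sided permutation p = 0.7). Vim took 56.8% ± 2.86 and 54.4% ± 7.11 (exact permutation p = 0.8). With 3 against 3 libraries the smallest p this test can give is 0.1. The means of all libraries hide a split: Gfap took 36.0 to 39.5% in control libraries, 30.8% in cKO library 1, 43.9% in cKO library 2 and 45.3% in cKO library 3. Without cKO library 1 the Gfap share differed by 6.95 percentage points, with no overlap. That library is the only cKO library below the control range, so the lack of overlap follows from leaving it out. Without cKO library 3 the difference was -0.263 points. In astrocyte-like cells Gfap took 44.4% ± 4.31 in control and 30.1% ± 9.20 in cKO libraries, with no overlap between 40.5 to 49.0% and 21.6 to 39.9% (exact permutation p = 0.1). Vim took 50.5% ± 6.04 and 65.1% ± 9.77 there (exact permutation p = 0.2). In the DKO library Gfap took 29.1% of the astrocyte-like UMIs of the 4 genes (95% exact binomial interval 25.0 to 33.5%, counting error only) and 34.1% in NSC-like cells (32.9 to 35.3%).

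The cKO effect was then compared between both glial types within each library, as the log2 level in NSC-like minus that in astrocyte-like cells. For Gfap this difference was 2.00, 2.13 and 1.85 in control and 2.10, 3.56 and 3.54 in cKO libraries. cKO library 1 overlapped with the control libraries, and the mean difference moved by 1.07 (exact permutation p = 0.2). For Vim it was 2.40 ± 0.17 in control and 2.38 ± 0.34 in cKO libraries (SD, n = 3 each), a move of -0.02 (exact permutation p = 1), and for Nes the move was 0.06 (p = 1 by the same exact test). For Synm it moved by 1.28 with no overlap (exact permutation p = 0.1), on 5 to 15 UMIs per library in astrocyte-like cells. These are 4 comparisons, and none can pass at this number of libraries.

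In ependymal-like cells, Vim, Nes and Synm, for which these cells rank among the highest, overlapped between groups, while the cKO mean of Gfap was 3.23 times the control mean. Vim stood at 1681, 1453 and 1364 CPM in control and at 1687, 1306 and 1461 CPM in cKO libraries. Nes stood at 106, 81.7 and 95.6 CPM in control and at 94.7, 82.4 and 89.0 CPM in cKO libraries. Synm stood at 309, 219 and 212 CPM in control and at 311, 258 and 193 CPM in cKO libraries. All 3 genes overlapped, with log2 fold changes of 0.05 ± 0.20, -0.05 ± 0.16 and 0.09 ± 0.20 SE. Gfap stood at 51.1, 181 and 50.7 CPM in control and at 142, 228 and 545 CPM in cKO libraries (log2 fold change 1.95 ± 0.82 SE, edgeR, adjusted p = 0.503). The control value of 181 CPM is that of library 2, whose count came mostly from 1 cell. Without that library the log2 fold change of Gfap was 2.66 ± 0.67 SE, and without cKO library 3 it was 1.16 ± 0.71, with no call in either. None of the 4 passed with edgeR or DESeq2, none had an unadjusted p under 0.05 (10.7% of all genes did), and 0.162% of all genes passed with edgeR.

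Counting cells instead of UMIs limits the weight of single cells. Each cell was thinned to 2000 UMIs by calculation and the share of cells expected to carry at least 1 Gfap UMI was taken, leaving out shallower cells. In ependymal-like cells this share was 9.10, 9.07 and 6.95% in control and 14.7, 24.2 and 31.2% in cKO libraries. The groups did not overlap (means 8.37% ± 1.24 and 23.4% ± 8.28, SD, n = 3 each, exact permutation p = 0.1, the smallest possible), and the DKO library stood at 23.5%. Thinned to 1000 UMIs they did overlap, with 3.47 to 10.2% in control and 8.63 to 21.1% in cKO libraries (exact permutation p = 0.2). How many of all genes separate on this thinned measure was not counted in any cell type. On CPM, 934 of 13564 genes in ependymal-like cells had all cKO libraries above all control libraries. Thinning left out 345 of 978 control and 154 of 713 cKO ependymal-like cells, and without it the shares were 20.5 and 41.9%. Microglia-like cells, which should not make Gfap, give the background: 1.503% ± 0.761 in control and 6.03% ± 2.00 in cKO libraries, which also did not overlap (exact permutation p = 0.1). Neuron-like cells (0 to 2.13% in control, 2.67 to 5.31% in cKO libraries) and neuroblast-like cells (1.43 to 1.86% and 1.94 to 5.76%) did not overlap either (exact permutation p = 0.1 for each). Mural-like cells had a lower cKO mean, at 3.89% in control and 2.22% in cKO libraries, and oligodendrocyte-like cells had means of 4.10 and 4.30%. The ependymal-like share lay above that of microglia-like cells in both groups, and the part of free RNA in the difference was not tested.

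**Figure D4:**
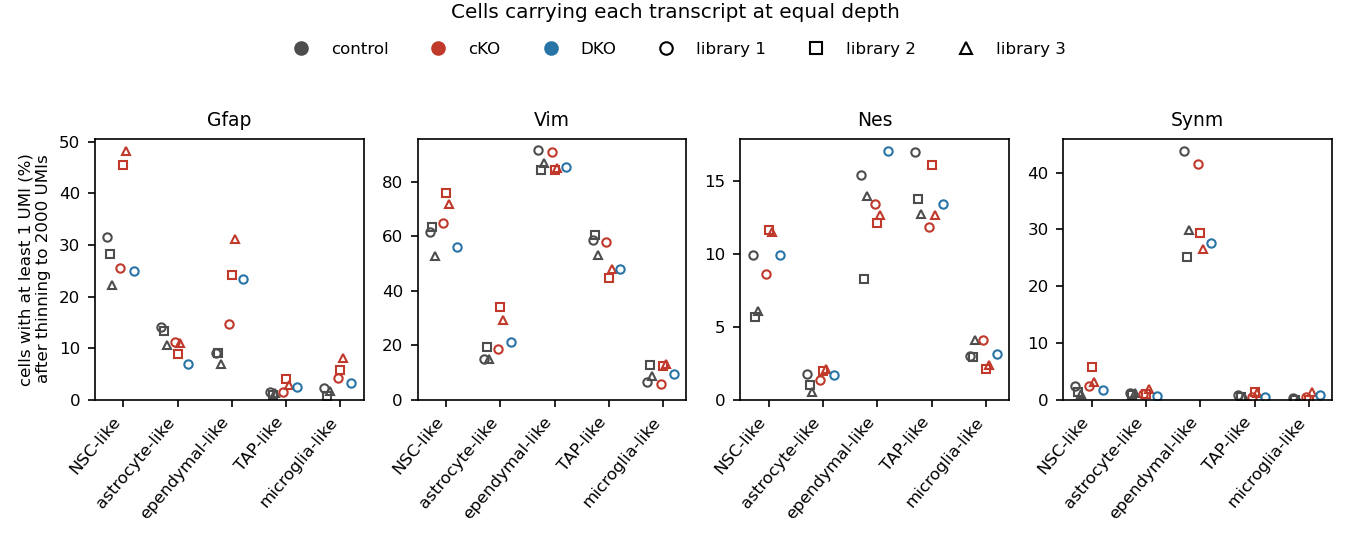
Share of cells (%) expected to carry at least 1 UMI of each gene after thinning every cell to 2000 UMIs, with 1 point per library, by cell type and group. For Gfap in ependymal-like cells the control libraries lie at 6.95 to 9.10% and the cKO libraries at 14.7 to 31.2%.

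In NSC-like cells the same measure for Vim was 61.5, 63.5 and 52.7% in control and 64.8, 76.1 and 71.7% in cKO libraries, without overlap (exact permutation p = 0.1). For Gfap it was 31.6, 28.2 and 22.3% in control and 25.6, 45.5 and 48.3% in cKO libraries, and cKO library 1 lay within the control range (exact permutation p = 0.3). Thinning left out 87 of 1977 control and 53 of 1190 cKO NSC-like cells, and before it the mean shares were 46.2 and 59.3% for Gfap and 87.1 and 92.4% for Vim, for which the groups then overlapped. Nes was found in 7.24% ± 2.33 of control and 10.6% ± 1.71 of cKO cells (exact permutation p = 0.2), and Synm in 1.63% ± 0.721 and 3.78% ± 1.76 (exact permutation p = 0.2). In astrocyte-like cells Vim was found in 16.5% ± 2.597 of control and 27.3% ± 7.85 of cKO cells (exact permutation p = 0.2) and Gfap in 12.7% ± 1.84 and 10.3% ± 1.31 (exact permutation p = 0.3).

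The next cells of the neurogenic lineage had Vim and Nes means at or below those of control, with no call when all libraries were used. In TAP-like cells, the dividing progenitors, Vim stood at 556, 612 and 442 CPM in control and at 537, 444 and 453 CPM in cKO libraries. Nes stood at 103, 82.5 and 74.8 CPM in control and at 70.4, 105 and 76.6 CPM in cKO libraries. Both overlapped (log2 fold changes -0.07 ± 0.16 and 0.06 ± 0.16 SE). The Gfap value of 74.2 CPM in cKO library 2 rested on 1 cell with 195 of 258 UMIs, against 5.06 to 15.0 CPM in the other control and cKO libraries. With edgeR 0 of 4 passed in TAP-like cells, 0 had an unadjusted p under 0.05 and DESeq2 called 0. The share called over all genes was 0%, with 878 of 14482 at an unadjusted p under 0.05 and 75 called by DESeq2.

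In neuroblast-like cells, the migrating young neurons, Nes stood at 33.4, 30.5 and 26.3 CPM in control and at 24.1, 13.3 and 14.2 CPM in cKO libraries, so all cKO libraries lay below all control libraries. Its log2 fold change was -0.69 ± 0.22 SE (edgeR, adjusted p = 0.576), and 7.90% of genes had all cKO libraries below all control libraries. Vim stood at 375, 442 and 348 CPM in control and at 428, 128 and 133 CPM in cKO libraries, so cKO library 1 lay inside the control range and the others well below it (log2 fold change -0.68 ± 0.51 SE, edgeR, adjusted p = 0.778). These cells sat in different clusters: cluster 7 held 87.4% of those of control library 1 and of control library 3, 86.0% for cKO library 1, 65.8% for cKO library 2 and 66.5% for cKO library 3, but 3.54% for control library 2, which had 89.9% in cluster 25. Cluster 9, where Vim stood at 18.1 to 51.3 CPM, held 5.46% of those of control library 1 and 4.82% for control library 3, against 9.58% for cKO library 1, 30.7% for cKO library 2, 28.5% for cKO library 3 and 15.2% for the DKO library. Within cluster 7 alone, the level of Vim was 387 CPM for control library 1 and 374 CPM for control library 3, against 465, 139 and 140 CPM for the cKO libraries in order. Nes stood at 33.3 and 26.0 CPM and at 25.8, 14.8 and 13.4 CPM in the same libraries of cluster 7. Without control library 2 the log2 fold changes were -0.57 ± 0.61 SE for Vim and -0.67 ± 0.25 for Nes, with no call. Of the 4 genes 0 passed here with edgeR, beside 0.0292% of all genes. Without cKO library 1, Vim (-1.49 ± 0.20 SE, adjusted p = 0.00158) and Nes (-1.03 ± 0.21 SE, adjusted p = 0.030) were called lower with edgeR, beside 0.438% of genes called lower. The library left out has the highest Vim and Nes of the cKO libraries, with Vim inside the control range. These calls therefore follow in part from that choice, which was made after its clusters were seen. At 2000 UMIs per cell, Nes was found in 4.57% ± 0.400 of control and 2.71% ± 0.706 of cKO neuroblast-like cells (exact permutation p = 0.1, no overlap).

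**Figure D5:**
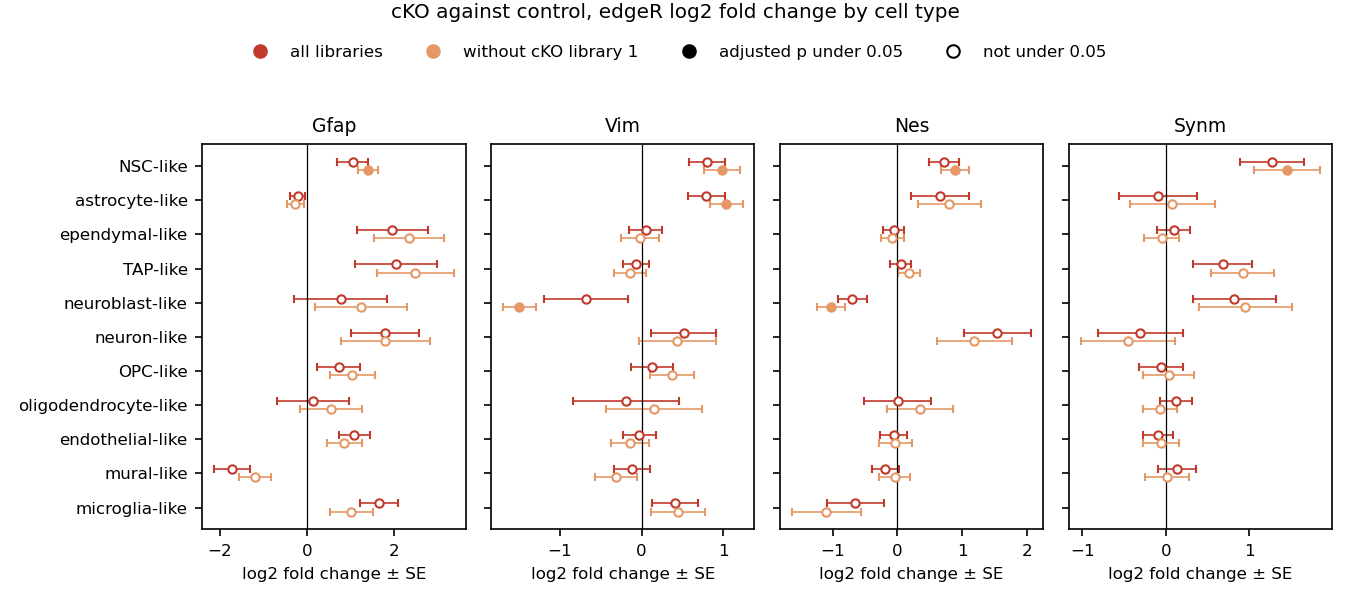
Log2 fold changes (± SE) of cKO against control from edgeR for each gene and cell type, with all libraries and without cKO library 1. That library was singled out after its clusters were seen. Filled points mark an adjusted p under 0.05, which of the plotted fits only those without cKO library 1 reached: all 4 in NSC-like cells, Vim in astrocyte-like cells, and Vim and Nes in neuroblast-like cells.

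Over the 7 types other than NSC-like, astrocyte-like, ependymal-like and TAP-like cells, 26 pairs of a gene and a type were tested. With edgeR 0 passed, 5 had an unadjusted p under 0.05, beside 1.75 to 7.66% of all genes by type, and DESeq2 called 0, with no adjusted p for the 3 pairs in OPC-like cells. Gfap in mural-like cells, the pericytes and smooth muscle of vessels, stood at 52.5, 38.1 and 38.9 CPM in control and 3.09, 25.5 and 13.0 CPM in cKO libraries, without overlap (log2 fold change -1.71 ± 0.41 SE, edgeR, adjusted p = 0.204, and 0.000881 with no filter on low counts). These rest on 20 to 45 UMIs in control and 2 to 10 in cKO libraries. In control libraries 1, 2 and 3 a single cell gave 10 of 33, 13 of 20 and 15 of 45 of them. At 2000 UMIs per cell the groups overlapped, with Gfap found in 3.42 to 4.57% of control and 0.703 to 3.48% of cKO mural-like cells (exact permutation p = 0.2). Of all genes in mural-like cells 0.0738% passed with edgeR in the main fit, and 7.11% had all cKO libraries below all control libraries. The share that passed with no filter is not given. In neuron-like cells Nes stood at 0.864, 3.31 and 2.92 CPM in control and at 12.3, 4.61 and 6.51 CPM in cKO libraries, without overlap, on 1 to 28 and 5 to 64 UMIs (log2 fold change 1.55 ± 0.52 SE, edgeR, adjusted p = 1). Of the 17 Nes UMIs in neuron-like cells of cKO library 1, 13 came from 1 cell. There 0.0161% of genes passed, and 1.77% had all cKO libraries above all control libraries.

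In 2 other types that are not neural, Gfap had an unadjusted p under 0.05 with a higher cKO mean, the opposite direction to mural-like cells. In microglia-like cells it stood at 17.0, 7.61 and 11.9 CPM in control and at 63.1, 15.4 and 28.3 CPM in cKO libraries (log2 fold change 1.65 ± 0.44 SE, edgeR, adjusted p = 0.999, and 0.0358 with no filter on low counts). In endothelial-like cells it stood at 11.8, 8.14 and 14.6 CPM in control and at 32.4, 11.4 and 27.6 CPM in cKO libraries (log2 fold change 1.09 ± 0.36 SE, edgeR, adjusted p = 1). Both overlapped, and in cKO library 1 single cells gave 23 of 37 and 27 of 42 of these UMIs. Of all genes, 0% passed in microglia-like (315 at an unadjusted p under 0.05, DESeq2 0), endothelial-like (0%, 195, DESeq2 2), OPC-like (0%, 734, DESeq2 9) and oligodendrocyte-like cells (0%, 437, DESeq2 10). The share that passed in microglia-like cells with no filter is not given. Vim, Nes and Synm, which are high in endothelial-like cells, had log2 fold changes of -0.03 ± 0.20, -0.06 ± 0.21 and -0.09 ± 0.18 SE there. Synm in oligodendrocyte-like cells stood at 86.0, 61.0 and 69.3 CPM in control and at 90.5, 56.3 and 73.9 CPM in cKO libraries.

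The DKO library carries both pairs of floxed alleles with Cre and has no replicate, so its fits assume that it varies like the other groups. In NSC-like cells it held Gfap at 332 CPM, Vim at 569 CPM, Nes at 63.0 CPM and Synm at 11.3 CPM. Gfap, Vim and Synm lay within the control range and Nes just above its highest value of 61.8 CPM. In astrocyte-like cells its Gfap level of 55.7 CPM was below all 6 control and cKO libraries (log2 fold change against control -0.65 ± 0.25 SE, edgeR, adjusted p = 0.545). Of the 8 tests in both types 0 passed with edgeR, beside 0.0590% of all genes for NSC-like cells and 0.176% for astrocyte-like cells, and DESeq2 called 0. In astrocyte-like cells 1 had an unadjusted p under 0.05, beside 6.81% of all genes. In NSC-like cells 0 did, beside 4.46%. In ependymal-like cells its Gfap level was 349 CPM, within the range of the cKO libraries. Gfap in OPC-like cells passed (log2 fold change 2.72 ± 0.48 SE, adjusted p = 0.0409, beside 0.0269% of genes), but 49 of its 55 UMIs came from 1 cell, the stricter gate gave 0.21 ± 0.86 SE, and DESeq2 gave an adjusted p of 0.328. The cKO and DKO contrasts share the control libraries.

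Prm1 UMIs, of a gene whose product packs sperm DNA, numbered 0 in control NSC-like cells, which allows up to 0.410 to 1.07 CPM per library. Among control ependymal-like cells, 1 of 327, 1 of 102 and 5 of 549 in libraries 1, 2 and 3 carried Prm1, and 2 of those in library 3 had at least 2 UMIs. In the libraries with hGFAP-Cre, 25.7, 62.0 and 74.8% of NSC-like cells in cKO libraries 1, 2 and 3 and 34.1% in the DKO library carried at least 1 Prm1 UMI. What these UMIs stand for was not tested. Cells with at least 2 Prm1 UMIs had more Gfap than cells of the same library with none. In NSC-like cells Gfap stood at 814 against 203 CPM in cKO library 1, at 1015 against 493 CPM in cKO library 2, at 1087 against 373 CPM in cKO library 3 and at 764 against 160 CPM in the DKO library. Vim stood at 1249 against 540, 1066 against 835, 1051 against 810 and 928 against 426 CPM in the same order. In ependymal-like cells Gfap stood at 425, 488 and 1173 CPM in cells with Prm1 of cKO libraries 1, 2 and 3, against 64.3, 121 and 61.7 CPM in those without. In the DKO library Gfap in ependymal-like cells stood at 900.1 against 79.2 CPM. Vim in ependymal-like cells stood at 1724, 1423 and 1616 against 1680, 1242 and 1343 CPM in the cKO libraries and at 1948 against 1328 CPM in the DKO library. Synm in ependymal-like cells was lower with Prm1 than without, at 258 against 319, 146 against 294 and 127 against 240 CPM in the cKO libraries in order and 180 against 214 CPM in the DKO library. Cells with Prm1 were deeper, with median totals of 8392 to 16314 UMIs against 4792 to 5411 UMIs in NSC-like cells of the cKO libraries. In ependymal-like cells the medians were 18747 to 20681 against 4633 to 7661 UMIs, and 18408 against 2115 UMIs in the DKO library. Cre is driven by the human GFAP promoter here, and whether Prm1 UMIs follow Cre was not tested. These values are a description with no test.

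Transcripts of other cell types were also counted in NSC-like cells. Summed hemoglobin, from red blood cells, stood at 107, 239 and 1486 CPM in control NSC-like cells and at 1434, 126 and 6047 CPM in the cKO libraries, with 2758 CPM in the DKO library. Mbp, which encodes a myelin protein that NSCs should not make, stood at 217, 240 and 262 CPM in control NSC-like cells and at 174, 118 and 255 CPM in the cKO libraries, with 138 CPM in the DKO library. Gfap in NSC-like cells of cKO libraries 1, 2 and 3 stood at 347, 873 and 890 CPM. The part of transcripts from other cells in these levels was not tested.

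Genes that act with the filaments were taken as lists. In NSC-like cells 0 of 35 tested passed with edgeR and all libraries, beside 0.465% of all genes. DESeq2 called 8 higher, beside 2.35% of all genes, and 1 lower, for which the share over all genes is not given. The median log2 fold change over all genes was -0.004. The counts at an unadjusted p under 0.05 that follow stand beside 11.9% of all genes. The reactive glia list had 8 of 12 genes tested, with a median of 1.51 and 4 at an unadjusted p under 0.05. The list of JAK-STAT signalling and astroglial transcription factors had 12 of 12 tested, a median of 0.15 and 6 at an unadjusted p under 0.05. The chaperones and modifiers of filaments (6 of 7 tested, median 0.10, 2 at an unadjusted p under 0.05), the plakins that link filaments to other structures (3 of 6, 0.04, 0) and other intermediate filament genes (6 of 19, 0.15, 1) had medians between 0.04 and 0.15.

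Without cKO library 1, members of 3 of these lists passed in NSC-like cells with edgeR, beside the 5.51% of genes called higher in that fit. The share of genes called lower is not given. Of the reactive glia genes 4 of 8 were higher: Cp, for ceruloplasmin (6.25 ± 0.36 SE on the log2 scale), S1pr3, a sphingosine-1-phosphate receptor gene (3.89 ± 0.38), Serpina3n, a protease inhibitor gene (1.54 ± 0.23), and C4b, of complement (0.94 ± 0.19). Of the signalling list 4 of 12 were higher, namely the receptor genes Osmr (2.77 ± 0.49), Lifr (1.64 ± 0.20) and Il6st (0.96 ± 0.18) and the transcription factor gene Stat3 (1.22 ± 0.18), while the receptor gene Cntfr was lower (-0.91 ± 0.21). Of the chaperones and modifiers 2 of 6 were higher, the small heat shock protein gene Cryab (2.44 ± 0.20) and the deiminase gene Padi2 (1.84 ± 0.19). With all libraries the mean level of Cryab was 85.2 ± 5.74 CPM in control and 330 ± 173 CPM in cKO libraries, that of Padi2 51.1 ± 11.2 and 138 ± 51.1 CPM, and that of Il6st 72.8 ± 5.14 and 116 ± 38.3 CPM. Cntfr had 229 ± 49.1 and 130 ± 29.4 CPM, C4b 109 ± 20.5 and 164 ± 52.0 CPM, and Lgals3, for galectin-3, 90.9 ± 34.4 and 54.7 ± 44.6 CPM (SD, n = 3 each).

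Among other abundant list genes in NSC-like cells, the plakin gene Macf1 had 353 ± 72.0 CPM in control and 345 ± 14.6 CPM in cKO libraries, Dst 144 ± 31.3 and 138 ± 4.64 CPM, and Plec 50.4 ± 7.88 and 49.7 ± 2.17 CPM. The kinase genes Rock1 (154 ± 28.2 and 142 ± 19.3 CPM), Rock2 (104 ± 26.2 and 98.6 ± 8.05 CPM) and Jak1 (161 ± 36.3 and 144 ± 22.8 CPM) overlapped in their SDs. So did the transcription factor genes Nfia (558 ± 62.2 and 486 ± 84.4 CPM) and Nfib (558 ± 78.9 and 576 ± 189 CPM), and Socs3, an inhibitor of JAK-STAT signalling (108 ± 18.5 and 116 ± 36.3 CPM). Sox9, of glial identity, had 889 ± 71.8 and 651 ± 105 CPM (log2 fold change -0.38, edgeR, adjusted p = 0.466), and Nfix 541 ± 27.6 and 457 ± 62.6 CPM (-0.17, adjusted p = 0.777).

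In astrocyte-like cells 4 of these genes passed with all libraries, beside the 1.29% of all genes named above. Lifr rose from 52.5 ± 5.37 to 92.7 ± 10.5 CPM (log2 fold change 0.82 ± 0.17 SE, edgeR, adjusted p = 0.0156). Cryab rose from 156 ± 13.1 to 293 ± 59.3 CPM (0.91 ± 0.19 SE, adjusted p = 0.0210). Socs3 rose from 8.98 ± 1.81 to 28.1 ± 13.5 CPM (1.57 ± 0.32 SE, adjusted p = 0.0214), and Cp from 0.864 ± 0.330 to 7.20 ± 3.32 CPM (2.88 ± 0.67 SE, adjusted p = 0.0339). Each of the 4 calls was lost without control library 2, control library 3, cKO library 2 or cKO library 3 (adjusted p = 0.0683 to 0.215), and those of Cryab (0.0780) and Cp (0.130) also without control library 1. With 1 library left out the log2 fold changes stayed at 0.76 to 0.90 for Lifr, 0.75 to 1.06 for Cryab, 1.30 to 1.89 for Socs3 and 2.601 to 3.135 for Cp. With types from clusters Socs3 turned to -0.58 ± 0.37 SE (edgeR, adjusted p = 0.676) and the call of Cp was lost (0.281). The stricter gate also lost Cp (edgeR, adjusted p = 0.0539) and Socs3 (0.0555). A limit of 5% mitochondrial UMIs lost Socs3 (0.143) and Lifr (0.116), and cells with at least 2000 UMIs lost Cp (0.0798). The 4 were 1 of 6 reactive glia genes tested, 2 of 12 of the signalling list and 1 of 6 chaperones and modifiers, whose median log2 fold changes were -0.39, -0.13 and 0.19 beside -0.005 over all genes. Without cKO library 1, the same 4 were called higher, beside 2.50% of genes called higher in that fit. Of 5 reactive glia genes tested there, C4b (-0.84 ± 0.23 SE, adjusted p = 0.0290) and Lgals3 (-2.63 ± 0.56, 0.00492) were called lower, with a list median of -0.71. The share of genes called lower is not given. Of the plakins 0 of 3 passed and of other filament genes 0 of 5, none of them at an unadjusted p under 0.05. C4b had 79.9 ± 19.9 CPM in control and 46.8 ± 5.76 CPM in cKO libraries (adjusted p = 0.0563), the opposite direction to its NSC-like means. Serpina3n had 94.4 ± 26.3 and 89.9 ± 6.62 CPM in control and cKO libraries, while the DKO library was lower than control (log2 fold change -3.20 ± 0.37 SE, edgeR, adjusted p = 0.000165). In ependymal-like cells Cp was the list gene that passed, from 65.6 ± 4.97 to 154 ± 47.1 CPM (1.31 ± 0.23 SE, adjusted p = 0.0461). This call was lost without any 1 library other than cKO library 1 (log2 fold changes 1.10 to 1.32, adjusted p = 0.0634 to 0.242). It was also lost at 5% mitochondrial UMIs (edgeR, adjusted p = 0.131), without doublets (0.0513), with the stricter gate (0.0673) and with types from clusters (0.111). The 12 other filament genes tested there, keratins and lamins among them, had 0 calls with edgeR, 0 at an unadjusted p under 0.05 and a median of -0.36 beside 0.006 over all genes.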

How the data were processed

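Single-cell RNA-seq (10x Genomics 3′ chemistry) of mouse V-SVZ lateral walls was analysed in 3 control, 3 cKO and 1 DKO libraries. Per the file headers, the authors deposited raw UMI counts per gene and barcode from Cell Ranger 6.0.1 (control and cKO libraries 1 and 2) or 6.1.1 (control library 3, cKO library 3, DKO), the submitters' notes name 6.1.1 and mm10, and the Methods name GRCm38 and another version. Each UMI counts once, and no normalization was applied. The 32158 of 32285 gene identifiers found in GENCODE vM21 include all 4 members.

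Cells with 500 to 7000 genes and at most 10% mitochondrial UMIs were kept, as the study did. Types were gated on marker genes without the 4 members, and markers that differed by 1.33-fold or more between groups were not used to tell NSCs from astrocytes. Cells were clustered in scanpy 1.11.5 without the members. Scrublet doublets stayed in, except in an alternative. Its automatic threshold failed in control library 1, which took the median of the thresholds found elsewhere. Counts were summed per library and type (at least 10 cells) and tested in edgeR 4.0.16 (expression filter, TMM, robust quasi-likelihood test, 7 libraries and 3 groups in 1 fit, Benjamini-Hochberg adjustment, threshold 0.05), a method first tested on simulated data. In simulated NSC-like counts it called 0% of genes changed 1.5-fold, 46.3% of those changed 2-fold and 87.9% of those changed 4-fold. Changes near 2-fold or smaller can therefore be missed. Shares were compared by exact two-sided permutation tests over libraries. The labels do not say whether libraries of the same number share an origin, and the main fits did not pair them. P-values measure the spread between library pools.

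The genes named are the 4 members, list genes called or at 50 CPM or more in control NSC-like or astrocyte-like cells, and the 5 most alike genes per member. The members and lists were chosen with earlier results of these data known. Alternatives were DESeq2 1.42.0, total-count scaling, no low-count filter, a replicate block, a limit of 5% mitochondrial UMIs, stricter gating, types from clusters, no doublets, other thinning depths and each library left out. Intervals and floors (3 UMIs) cover counting error only.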

Additional observations from a re-analysis of the deposited data

Results flagged for a closer look

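Nes in neuron-like and neuroblast-like cells was picked out because all cKO libraries lay above all control libraries in the first type and below them in the other. The cKO minus control difference of log2 CPM in neuron-like cells exceeded that in neuroblast-like cells by 2.67. No p-value is given for this difference, since the pick itself sets the groups apart and a test could not decide anything. The neuron-like values rest on 1 to 64 UMIs per library, 13 of the 17 in cKO library 1 came from 1 cell, and when types were taken from clusters the neuron-like log2 fold change of Nes was -0.42.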

How the results depend on the processing

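Of 1068 values recomputed under alternatives for 73 results, 934 counted as the same. For the fits this means the same direction and side of the threshold. Counts could change by up to 1.5-fold, and levels by less than the SD of the control libraries. For the exact tests, whose smallest p is 0.1, and within single Cell Ranger versions, only the direction could change. The count of the 4 genes called in NSC-like cells, 0 with all libraries, was 3 with DESeq2, 4 with no filter on low counts and 0 to 4 with 1 library left out, the 4 being without cKO library 1. In astrocyte-like cells it was 1 with no filter, 1 with the replicate block and 0 to 1 with 1 library left out (cKO library 1), with Vim the gene called each time. In the other types it was 2 with no filter (Gfap in mural-like and microglia-like cells, adjusted p = 0.000881 and 0.0358), 2 with the replicate block (the same pair, 0.0490 and 0.00675) and 0 to 2 with 1 library left out (cKO library 1). Leaving out the DKO library together with cKO library 1, chosen after seeing the data, gave 4, 1 and 2 calls. The shares of all genes called under these alternatives are not given here. With the replicate block, adjusted p in NSC-like cells was 0.342 for Gfap, 0.050 for Vim, 0.149 for Nes and 0.067 for Synm. In NSC-like cells the deviations of control and cKO libraries of the same number correlated at 0.28, 0.012 and 0.40 for numbers 1, 2 and 3. Whether libraries of the same number share an origin was not tested. The count of called list genes, 4 with all libraries, was 13 with DESeq2, 7 with total counts, 17 with no filter, 13 with the replicate block, 2 at 5% mitochondrial UMIs, 2 with the stricter gate and 0 to 17 with 1 library left out, with 17 without cKO library 1 and 0 without control library 2 or 3 or cKO library 2 or 3. It was 18 without cKO library 1 and the DKO library. This count covers NSC-like and astrocyte-like cells and stands without the share of all genes called under each alternative.

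The directions below turned, and the cause was not tested. In ependymal-like cells Vim moved to -0.0142 with total counts, and at 5% mitochondrial UMIs Nes moved to 0.14 and Synm to -0.0745. In TAP-like cells Nes moved to -0.0498 with total counts, -0.0799 at 5% mitochondrial UMIs, -0.11 with the stricter gate and -0.0628 with types from clusters. In DKO NSC-like cells Gfap moved to 0.24 with the block, 0.35 at 5% mitochondrial UMIs, 0.18 with the stricter gate and 0.45 with clusters. In DKO astrocyte-like cells Nes moved to -0.0430, -0.44 and -0.0834 with the block, at 5% and with the stricter gate. With types from clusters Nes in neuron-like cells moved to -0.42 and Socs3 in astrocyte-like cells, called with all libraries, to -0.58. In the libraries of Cell Ranger 6.1.1 alone, astrocyte-like Gfap moved to 0.01 and Synm to 0.36. The NSC-like minus astrocyte-like effect of Vim moved to 0.0376 at 5% mitochondrial UMIs, 0.10 with the stricter gate and 0.29 with clusters. The astrocyte-like Synm share of cells moved to -0.0274 points without thinning, and the control NSC-like Gfap level to 279 CPM at 5% mitochondrial UMIs.

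With 1 library left out, log2 differences ranged from -0.40 to 0.13 for Synm in astrocyte-like cells, -0.0195 to 0.13 for Vim and -0.0497 to 0.25 for Synm in ependymal-like cells, -0.17 to 0.0333 for Vim and -0.14 to 0.18 for Nes in TAP-like cells, -0.15 to 0.0799 for Gfap in DKO NSC-like cells and -0.19 to 0.66 for Nes in DKO astrocyte-like cells. The NSC-like minus astrocyte-like effect ranged from -0.16 to 0.17 for Vim and -0.12 to 0.33 for Nes. The UMI share in NSC-like cells moved by -0.263 to 6.95 points for Gfap and -1.14 to 0.0957 points for Nes, and the astrocyte-like Synm share of cells by -0.0874 to 0.339 points. With 5 to 74 Synm UMIs per library in the glial types, and 3 libraries a group, small differences were not detectable.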
